A study of Mus musculus with 4 samples.

Results

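The lysosome and autophagy genes are 33 transcripts of the liver read count table, picked by gene symbol for their known place in the pathway, out of 35275 genes listed. Each of them was found once in the table, and all 33 reached at least 1 CPM (counts scaled to a common library size by TMM) in at least 1 library, as did 12180 genes in all. The liver RNA came from 4 groups of female mice that all carried the amyloidogenic Apoa2c allele, given in the paper as R1.P1-Apoa2c on a SAMR1 background and in the sample labels as AKR/J with an Apoa2c congenic genotype. Sedentary mice given vehicle formed the VS group, and vehicle mice under interval exercise training (IT) the VI group. Sedentary mice in which AApoAII fibrils had been injected to start amyloidosis formed the FS group, and fibril mice under IT the FI group. All livers were taken at 26 weeks of age, after the 16 weeks in which the VI and FI mice trained. The tissue of the 4 mice in a group was pooled ahead of extraction. The 16 mice are thus represented by 4 libraries, 1 for each group, without replicates. The intervals printed are exact 95% intervals for counting error only, and cover neither differences between mice nor library preparation. Intervals of a departure from additivity use the normal approximation to the same counting error. The total count ranged from 23442935 in VS to 28814802 in FS, and TMM factors, which scale libraries to a common composition, ranged from 0.975 to 1.02. In a bulk library, fewer cells of a type and less RNA per cell cannot be told apart.

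Lysosomes are acid compartments in which proteases, glycosidases and lipases break down material taken up by endocytosis or delivered from inside the cell. In autophagy, the second route, a membrane is formed around cytoplasm under the control of the ULK1 kinase and the Beclin 1 lipid kinase complex, is decorated with lipid-bound ATG8 proteins such as LC3, and fuses with the lysosome. The factor TFEB binds a palindromic element around the letters CACGTG in many lysosomal promoters. In liver, both hepatocytes and Kupffer cells, the resident macrophages, are rich in lysosomes, and macrophages can take up amyloid fibrils.

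The 33 genes differed far more from each other than between the libraries. On the length-adjusted scale of the deposited FPKM values (counts adjusted for gene length and library total), the mean over the 4 libraries ranged from 1.38 FPKM for Gla, which encodes alpha-galactosidase A, to 536 FPKM for Ctsl, which encodes the cysteine protease cathepsin L. After Ctsl came Gabarapl1, an ATG8 family gene, with 364 FPKM, and Lamp1, a major glycoprotein of the lysosomal membrane, with 322 FPKM. Ctsz (cathepsin Z) stood at 236 FPKM, Psap (the precursor of the saposins, cofactors of sphingolipid breakdown) at 204 FPKM and Ctsd (the aspartic protease cathepsin D) at 166 FPKM. The genes of low level were Glb1 (beta-galactosidase) with 2.56 FPKM and Wipi1, which binds phosphoinositide on the forming autophagosome, with 3.42 FPKM. The share of the library total that fell on the 33 genes was 0.703% (VS), 0.789% (VI), 0.682% (FS) and 0.743% (FI).

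**Figure D1:**
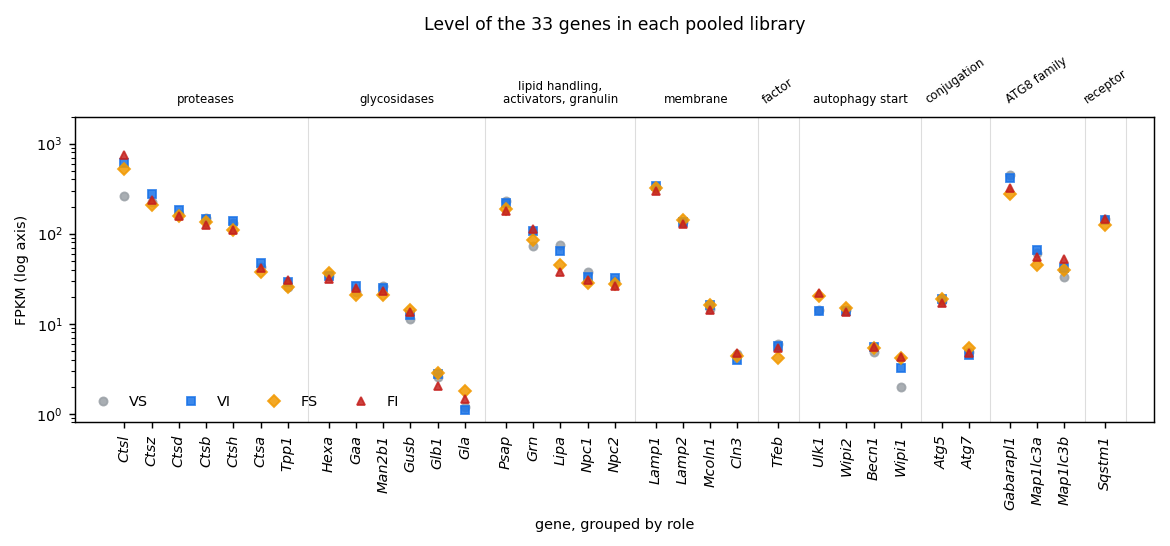
Level of each of the 33 genes in the 4 pooled libraries, as deposited FPKM on a log axis, with genes grouped by role along the x axis. Each symbol is 1 library (VS, VI, FS or FI), and the 4 symbols of most genes lie on each other, while those of Ctsl spread from 260 FPKM in VS to 748 FPKM in FI.

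The E-box letters were looked for in the promoters of the genes, since they are what TFEB and related factors recognize. RefSeq promoters on GRCm38.p6, each 250 bases before to 50 bases after the start site, were found for 28 of the 33 genes, with no entry for Ctsb, Ctsh, Becn1, Map1lc3a and Npc1. The short palindrome CACGTG was present in 11 of the 28 (39.3%), against 8.09% of all 27025 genes with a promoter in the table. The longer palindrome TCACGTGA, which contains the short one, was present in 5 of the 28 (17.9%), against 1.12% of all genes. The element is known from lysosomal promoters, and these genes were picked for their place in that pathway. A higher share among them is thus no finding of these data. The 27025 genes also include genes that did not pass the CPM filter in these livers. Both palindromes read the same on either strand. A gene was counted if any of its promoters held the letters, for the 33 genes as for all genes. Counted by promoter, CACGTG was in 33.3% and TCACGTGA in 15.2% of the promoters of these genes, against 7.15% and 0.974% of all 32851 promoters. Of the 28 genes, 4 had more than 1 promoter in the table, which were Cln3, Ctsa and Psap with 2 each and Tfeb with 3. For Cln3 and Ctsa the letters lay in the downstream promoter alone, and the promoter at the start of the gene as listed with the counts held none. The only promoter found for Atg7 (chr6:114670846-114671145) also lay downstream of the listed start of that gene (chr6:114643097). The genes with the longer palindrome were Cln3, Ctsa, Ctsd, Gla and Mcoln1, and those with the short form alone were Atg5, Atg7, Ctsl, Gaa, Glb1 and Lamp1. The stretches around the longer palindrome are given here with those of Lamp1, which held 4 copies of the short one, and of Ctsl, the gene with the largest ratios. They run 5′ to 3′ on the strand of the gene, with the palindromes in capitals. Ctsa encodes the carboxypeptidase that protects beta-galactosidase (chr2:164833758-164833786, plus strand), Cln3 a lysosomal membrane protein (chr7:126583340-126583369, minus strand), Mcoln1 a lysosomal calcium channel (chr8:3500462-3500491, plus strand). The stretches of Ctsd (chr7:142387908-142387937, minus strand), Gla (chrX:134601178-134601248, minus strand), Lamp1 (chr8:13159085-13159166, plus strand) and Ctsl (chr13:64370736-64370770, minus strand) complete the set.
Ctsa: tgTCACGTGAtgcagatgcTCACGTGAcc
Cln3: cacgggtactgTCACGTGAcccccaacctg
Mcoln1: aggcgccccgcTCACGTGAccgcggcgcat
Ctsd: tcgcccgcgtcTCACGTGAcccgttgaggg
Gla: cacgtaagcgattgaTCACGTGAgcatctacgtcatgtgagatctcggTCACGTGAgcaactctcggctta
Lamp1: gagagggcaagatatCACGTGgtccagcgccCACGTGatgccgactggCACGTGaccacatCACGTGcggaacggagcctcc
Ctsl: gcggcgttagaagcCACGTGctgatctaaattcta

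The log2 ratios described further on are summarized here by the presence of these letters. For the 11 genes with CACGTG, the log2 ratios had a median of 0.13 for VI versus VS, −0.05 for FI versus FS, 0.08 for FS versus VS and −0.13 for FI versus VI. For the 17 genes without it, the medians were 0.02, 0.19, −0.02 and −0.05 in the same order. Among the 11 with the letters, Ctsl alone passed 1.5-fold in any comparison. A match of letters describes the window and not a site in use.

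The effect of IT was read from VI versus VS among vehicle mice and from FI versus FS among fibril mice, and the effect of amyloidosis from FS versus VS and from FI versus VI. The first contrast of each factor uses the VS library, and the second of each uses FI. The paper reports less amyloid in the livers of trained than of sedentary fibril mice, and none in vehicle mice. FI versus FS thus spans training and amyloid load together, which cannot be told apart here. FI versus VI likewise spans a smaller amyloid load than FS versus VS. In VI versus VS, 3 of the 33 genes were more than 1.5-fold higher in VI (Ctsl, Grn and Wipi1) and 0 lower, where 5.37% and 6.30% of all genes passed that fold upward and downward. In FI versus FS, 1 gene (Ctsl) was more than 1.5-fold higher and 0 lower, against 5.94% and 7.59% of all genes. In FS versus VS, Ctsl and Wipi1 were more than 1.5-fold higher and Lipa and Gabarapl1 lower, against 10.1% and 7.40% of all genes. In FI versus VI, Ulk1 was more than 1.5-fold higher and Lipa lower, against 7.90% and 6.08%. Beyond 2-fold lay Ctsl in VI versus VS, where 1.54% of all genes were higher and 1.90% lower, and Wipi1 in FS versus VS, where 3.60% were higher and 2.18% lower. None of the 33 passed 2-fold in FI versus FS (all genes, 1.72% higher and 2.54% lower) or in FI versus VI (2.59% higher and 1.95% lower).

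The centre of the 33 genes moved little. For IT, the median of their log2 ratios was 0.10 among vehicle and 0.09 among fibril mice, beside medians of all genes of 0.0038 and 0.0004. The value among fibril mice depends on the scaling, and was 0.02 with total counts or the deposited FPKM, where the median of all genes was −0.07 and −0.05 (total counts and FPKM with a pseudocount of 1). For amyloidosis it was −0.06 among sedentary and −0.07 among trained mice, beside 0.02 and 0.01 for all genes. In VI versus VS, 21 of the 33 genes had ratios above 0 (63.6%, all genes 50.7%), as did 20 in FI versus FS (60.6%, all genes 50.1%). For amyloidosis the genes above 0 numbered 15 among sedentary (45.5%, all genes 52.0%) and 13 among trained mice (39.4%, all genes 51.3%). Both contrasts of IT had the same sign for 20 of the 33 genes (60.6%, all genes 60.5%), and both contrasts of amyloidosis for 25 (75.8%, all genes 66.2%), of which 10 were higher and 15 lower in fibril libraries. Of all 12180 genes, 4235 were higher and 3832 lower in both contrasts of amyloidosis. In both contrasts of IT, 3739 of all genes were higher and 3631 lower.

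**Figure D2:**
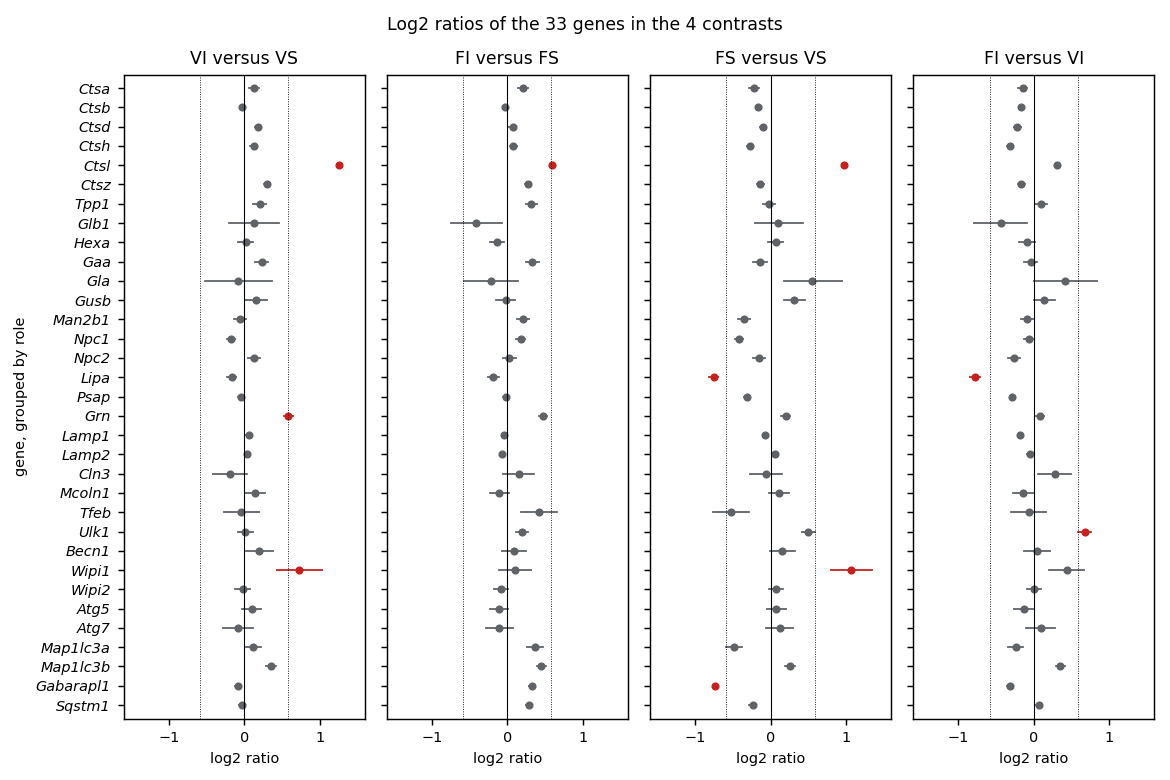
Log2 ratio of each of the 33 genes in the 4 contrasts, with exact 95% counting intervals as bars (where no bar is seen, it is shorter than the point). Dotted lines mark 1.5-fold and red points lie beyond it, with 3 genes in VI versus VS, 1 in FI versus FS, 4 in FS versus VS and 2 in FI versus VI.

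With 1 library per group no contrast has a test. An additive model of IT and amyloidosis over all 4 libraries, fitted to 11760 genes, leaves 1 residual degree of freedom, which is the departure from additivity. Its p-values set the change with each factor against a spread estimated from that departure and moderated over all genes. They do not cover differences between mice. With the quasi-likelihood test of edgeR, adjusted after Benjamini and Hochberg, none of the 33 genes was called for IT at 0.05. An unadjusted p below 0.05 was found for 6 of them, and for 1710 of the 11760 genes. Among all genes 0.672% were called higher and 0.663% lower with IT. For amyloidosis, 9 of the 33 had an unadjusted p below 0.05, as did 2482 of the 11760 genes. Ulk1 was called higher and Lipa lower, and 2.64% of all genes were called higher and 1.96% lower. Both calls were lost when amyloidosis was the only factor, with an adjusted p of 0.146 for Ulk1 and 0.0954 for Lipa by edgeR.

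Among the 7 proteases, which degrade proteins in the lumen of the lysosome, Ctsl stood apart. Ctsl (chr13:64363214-64370306, minus strand) was at 509 (VS), 1218 (VI), 1004 (FS) and 1512 CPM (FI). The sedentary vehicle library was thus the lowest and the trained fibril library the highest, with counting intervals that did not overlap. The log2 ratio was 1.26 (1.23 to 1.29) for VI versus VS and 0.59 (0.57 to 0.61) for FI versus FS. The latter lies close to the 1.5-fold line and came to 0.52 when libraries were scaled by their total counts, so that this call depends on the scaling. For amyloidosis the log2 ratio of Ctsl was 0.98 (0.95 to 1.01) among sedentary and 0.31 (0.29 to 0.33) among trained mice. Adding both single changes to VS would have given 1713 CPM, more than the 1512 CPM of FI, and on the log2 scale the departure was −0.67 (−0.71 to −0.63). In the additive model Ctsl had a log2 change of 0.92 ± 0.18 (SE) for IT with an adjusted p of 0.0607, and 0.65 ± 0.18 for amyloidosis with an adjusted p of 0.0906, both above the threshold by edgeR. The IT call was made with DESeq2 size factors (adjusted p of 0.0328), by limma-voom (0.0288) and by DESeq2 (0.000208), and the amyloidosis call by DESeq2 (0.0263). Of the 12180 genes, 179 were at least as far up as Ctsl in both contrasts of IT, judged by the smaller of both ratios.

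The balance of Ctsl to the other proteases differed between the libraries as well. The FPKM of Ctsl over that of Ctsb, another cysteine protease with a broad substrate range, was 1.74 (VS), 4.26 (VI), 3.85 (FS) and 5.92 (FI). Among all listed genes ordered by FPKM, Ctsl took place 297 (VS), 106 (VI), 118 (FS) and 84 (FI). Of the counts on the 33 genes, Ctsl took 7.30% (VS), 15.3% (VI), 15.1% (FS) and 19.8% (FI). The summed level of the 33 genes was 6976 (VS), 7943 (VI), 6661 (FS) and 7620 CPM (FI). Without Ctsl, the sums were 6467, 6725, 5656 and 6108 CPM in the same order, so that most of the higher sum of VI over VS was Ctsl.

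The other 6 proteases were Ctsa, Ctsb, Ctsd, Ctsh (an aminopeptidase), Ctsz (a carboxypeptidase) and Tpp1 (tripeptidyl peptidase 1). Of the 7 proteases, 6 had ratios above 0 in both contrasts of IT (5 with total counts or FPKM) and Ctsb below 0 in both. In both contrasts of amyloidosis 5 had ratios below 0, and Ctsl alone was higher in both (with total counts or FPKM, Tpp1 as well). Of all 12180 genes, 3739 were above 0 in both contrasts of IT and 3832 below 0 in both of amyloidosis. The protease median was 0.19 for VI versus VS, 0.21 for FI versus FS, −0.13 for FS versus VS and −0.16 for FI versus VI. The sources used here do not say whether reads were counted by strand. Ctsb overlaps Fdft1, a gene of sterol synthesis on the opposite strand, over 767 bases. If strand was not used, reads of that stretch cannot be assigned to either. Ctsa likewise shares 1515 bases with Pltp, a phospholipid transfer gene, which had between 131 and 194 counts.

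The 6 glycosidases, which remove sugars from glycoproteins, glycolipids and glycogen, held few differences. Hexa, the alpha subunit of beta-hexosaminidase and the highest of them by FPKM, was at 63.4 (VS), 64.2 (VI), 66.4 (FS) and 60.4 CPM (FI). Its 4 values lay within 1.10-fold of each other. Gaa (acid alpha-glucosidase, which breaks down glycogen) was the only member of the group above 0 in both contrasts of IT, with log2 ratios of 0.23 and 0.33. Gla had the largest ratio among the 27 genes that are not given in full, 0.56 for FS versus VS, at levels between 3.53 and 5.49 CPM. Glb1, Gusb (beta-glucuronidase) and Man2b1 (alpha-mannosidase) kept within 1.5-fold in every contrast. The span of Glb1 shares 10106 bases with Tmppe on the same strand, which had between 99 and 154 counts. Glb1 itself had between 120 and 195 counts, and the part of the overlap in them was not tested.

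Of the 5 genes of lipid handling and soluble cofactors, Lipa moved with amyloidosis. Lipa (chr19:34492318-34527474, minus strand) encodes lysosomal acid lipase, which frees cholesterol and fatty acids from lipoprotein lipids. It was at 218 (VS), 194 (VI), 129 (FS) and 113 CPM (FI). Both fibril libraries were below both vehicle libraries, with no overlap of the counting intervals. The log2 ratio was −0.75 (−0.82 to −0.69) for FS versus VS and −0.77 (−0.84 to −0.71) for FI versus VI. With IT, the ratios were smaller, −0.17 and −0.19. In the additive model Lipa fell by 0.76 ± 0.11 (SE) on the log2 scale with amyloidosis, with an adjusted p of 0.0125 by edgeR. Of all genes, 163 were at least as far down as Lipa in both contrasts of amyloidosis.

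Psap, Npc1 and Npc2 were lower in fibril libraries by less, and were not called. Psap was at 608 (VS), 589 (VI), 489 (FS) and 483 CPM (FI), with log2 ratios for amyloidosis of −0.31 and −0.29. Npc1 and Npc2, which carry cholesterol out of the lysosome, had ratios of −0.42 and −0.16 for FS versus VS and of −0.06 and −0.26 for FI versus VI. Of the 5 genes of the group, 4 (Lipa, Psap, Npc1 and Npc2) were thus below 0 in both contrasts of amyloidosis under each scaling. The progranulin gene Grn was above 0 in both. Of all 12180 genes, 3832 were below 0 in both. Npc1 and Psap are not independent of Lipa as measurements, since all come from the same 4 libraries.

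Grn encodes progranulin, a secreted and lysosomal glycoprotein whose loss leads to lysosomal storage. Grn (chr11:102430315-102437048, plus strand) was at 168 (VS), 253 (VI), 193 (FS) and 268 CPM (FI). Both trained libraries were above both sedentary ones, without overlap of the counting intervals. The log2 ratio was 0.59 (0.53 to 0.64) for VI versus VS and 0.47 (0.42 to 0.52) for FI versus FS. The former lies close to the 1.5-fold line and fell short of it with total counts (0.57) and with FPKM at a pseudocount of 1 (0.56). For amyloidosis the ratios of Grn were 0.20 and 0.09. The additive log2 change of Grn with IT was 0.53 ± 0.12 (SE), and its adjusted p of 0.0869 by edgeR missed the threshold.

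**Figure D3:**
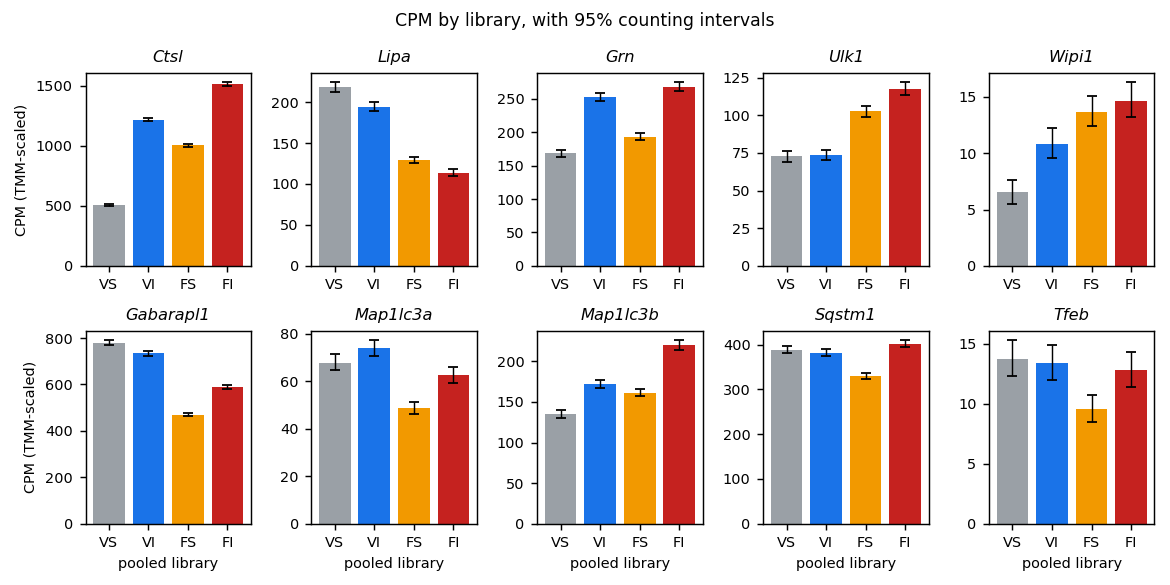
CPM of 10 genes in the 4 pooled libraries, scaled by TMM, as bars from 0 with exact 95% counting intervals. Ctsl and Grn are higher in VI and FI than in the sedentary library of the same injection, Lipa is lower and Ulk1 higher in FS and FI, and Gabarapl1, Map1lc3a, Sqstm1 and Tfeb have their lowest bar in FS.

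The 4 genes of the lysosomal membrane were steady. Lamp1 was at 741 (VS), 772 (VI), 705 (FS) and 682 CPM (FI). Lamp2, which also serves chaperone-mediated autophagy, was the steadiest of all 33, its highest library being 1.05-fold its lowest. None of the 4 genes (Lamp1, Lamp2, Cln3 and Mcoln1) was on the same side of 0 in both contrasts of IT. Cln3, with levels between 12.7 and 15.4 CPM, shares 876 bases with Apobr on the opposite strand.

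Tfeb, the gene of the factor itself, was low. It was at 13.7 (VS), 13.4 (VI), 9.55 (FS) and 12.8 CPM (FI), with FS below the other 3 libraries. The log2 ratio was −0.52 for FS versus VS, 0.42 for FI versus FS, and −0.04 and −0.07 in the other contrasts. Tfeb was not called for either factor, with an adjusted p of 0.667 for IT and 0.358 for amyloidosis by edgeR. TFEB acts mainly through its transfer to the nucleus, which transcript levels do not measure.

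Among the 4 genes that start autophagy, Ulk1 and Wipi1 were higher in fibril libraries. Ulk1 (chr5:110784488-110810097, minus strand), the kinase that starts autophagy when nutrients are short, was at 72.6 (VS), 73.4 (VI), 103 (FS) and 117 CPM (FI). The vehicle libraries overlapped in their counting intervals, and both fibril libraries lay above them. The log2 ratio was 0.50 (0.41 to 0.59) for FS versus VS and 0.68 (0.59 to 0.77) for FI versus VI, against 0.01 and 0.19 for IT. With amyloidosis Ulk1 rose by 0.59 ± 0.11 (SE) on the log2 scale in the additive model, with an adjusted p of 0.0290 by edgeR. Of all genes, 579 were at least as far up in both contrasts.

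Wipi1 (chr11:109573331-109611967, minus strand) was at 6.52 (VS), 10.8 (VI), 13.7 (FS) and 14.7 CPM (FI). VS was thus below the other 3 libraries, on 154 counts. Its log2 ratio was 1.07 (0.80 to 1.35) for FS versus VS, 0.44 (0.20 to 0.67) for FI versus VI, 0.73 (0.44 to 1.03) for VI versus VS and 0.10 (−0.11 to 0.31) for FI versus FS. The adjusted p of Wipi1 for amyloidosis was 0.0700 by edgeR, and 0.0450 with DESeq2 size factors. Becn1 (Beclin 1) and Wipi2, which recruits the conjugation machinery, stayed within 1.19-fold and 1.06-fold over the 4 libraries. All 4 genes of the group were above 0 in both contrasts of amyloidosis, as were 4235 of all 12180 genes. The counting intervals of Becn1 included 0 in FS versus VS (−0.01 to 0.33) and in FI versus VI (−0.13 to 0.21). For Wipi2 the ratio in FI versus VI was 0.002, and under every other scaling 3 of the 4 were above 0 in both.

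Conjugation of ATG8 proteins to lipid needs Atg5 and Atg7, and both were steady. Atg5 was at 41.4 (VS), 44.3 (VI), 43.7 (FS) and 40.5 CPM (FI). Atg7, the activating enzyme, ranged from 17.8 to 20.5 CPM.

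The 3 ATG8 genes differed in sign for amyloidosis, while in FI versus FS all of them were above 0. Gabarapl1 (chr6:129533200-129542331, plus strand) was at 780 (VS), 735 (VI), 470 (FS) and 588 CPM (FI). Both fibril libraries were below both vehicle libraries, and FS was the lowest. The log2 ratio of Gabarapl1 was −0.73 (−0.76 to −0.70) for FS versus VS and −0.32 (−0.35 to −0.29) for FI versus VI. For IT it was −0.09 (−0.12 to −0.06) in vehicle and 0.32 (0.29 to 0.36) in fibril mice, a departure from additivity of 0.41 (0.37 to 0.46). Its adjusted p for amyloidosis was 0.0884 by edgeR and 0.0482 by DESeq2, and its additive log2 change −0.53 ± 0.15 (SE).

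Map1lc3a and Map1lc3b encode LC3A and LC3B, and are given beside Gabarapl1 although they passed no fold threshold. Map1lc3a was at 67.9 (VS), 73.9 (VI), 48.5 (FS) and 62.6 CPM (FI). Map1lc3b was at 135 (VS), 172 (VI), 161 (FS) and 220 CPM (FI). LC3B was thus highest in FI and lowest in VS, while LC3A had its lowest value in FS, like Gabarapl1. In FI versus FS the log2 ratio was 0.37 for Map1lc3a and 0.45 for Map1lc3b. The FPKM of Map1lc3b over that of Map1lc3a was 0.535 (VS), 0.627 (VI), 0.893 (FS) and 0.946 (FI). The FPKM of Gabarapl1 over that of Map1lc3b went the other way, from 13.5 in VS and 9.99 in VI to 6.83 in FS and 6.26 in FI. Neither LC3 gene was called, with adjusted p-values for amyloidosis of 0.126 for Map1lc3a and 0.175 for Map1lc3b by edgeR. Map1lc3b shares 8400 bases with Gm20388 on the same strand, which had 0 counts in every library.

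Sqstm1 encodes p62, the receptor that binds ubiquitinated cargo to LC3. It was at 389 (VS), 382 (VI), 330 (FS) and 402 CPM (FI). FS was below the other 3 libraries, and the log2 ratio of Sqstm1 was −0.24 in FS versus VS and 0.29 in FI versus FS. In CPM, FS was likewise lowest for Gabarapl1, Map1lc3a and Tfeb, and also for Ctsa, Ctsd, Ctsh, Ctsz, Tpp1, Gaa, Man2b1, Npc1 and Npc2. In FPKM, Tpp1 was lowest in VS (25.6, against 25.63 in FS) and Npc2 in FI (26.48, against 27.29 in FS). Ctsd was at 156.7 FPKM in both FS and FI. The share of all genes with their lowest value in FS was not counted. Transcript levels of Sqstm1 and of the ATG8 genes do not measure autophagic flux. Sqstm1 overlaps another gene on the opposite strand over 750 bases. Apart from the 6 genes beyond 1.5-fold or called, the log2 ratios of the other 27 lay between −0.52 (Tfeb) and 0.56 (Gla), and their highest library was 1.05 to 1.63 times their lowest, with a median of 1.24.

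Further genes of the pathway were examined in 8 lists with 146 genes, of which all but Ccpg1 passed the filter on low counts. The lists covered the proton pump, other hydrolases, other lysosomal membrane proteins, sorting of hydrolases, the TFE factors and mTORC1, other autophagy core genes, fusion and other cargo receptors. By edgeR, 1 of 16 proton pump genes was called lower with IT, 1 of 31 other hydrolases, 1 of 12 other membrane proteins and 1 of 28 other core genes were called higher with amyloidosis. The other cargo receptors had 1 gene of 14 called higher and 1 lower with IT and 2 higher with amyloidosis. Of all genes, 0.672% were called higher and 0.663% lower with IT, and 2.64% higher with amyloidosis. No gene of the sorting, mTORC1 or fusion lists (10, 21 and 13 genes) was called for either factor, with between 0 and 7 genes of each at an unadjusted p below 0.05. Among all 11760 genes, 1710 (IT) and 2482 (amyloidosis) had such a p by edgeR.

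The genes called in these lists were 7. Atp6v0d2, a subunit of the pump found in osteoclasts and macrophages, was at 21.7 (VS), 10.8 (VI), 30.0 (FS) and 10.5 CPM (FI), with an adjusted p of 0.0158 for IT. Ncoa4, the receptor for the autophagy of ferritin, was at 43.8 (VS), 68.6 (VI), 69.5 (FS) and 126 CPM (FI). It was called for both factors, with an adjusted p of 0.0304 for IT and 0.0133 for amyloidosis. Retreg1, a receptor for the autophagy of endoplasmic reticulum, was at 86.9 (VS), 103 (VI), 212 (FS) and 323 CPM (FI). Its log2 ratio was 1.29 for FS versus VS and 1.65 for FI versus VI, the largest of these genes, with an adjusted p of 0.00264 for amyloidosis. Stbd1, which binds glycogen, was at 109 (VS), 68.7 (VI), 84.0 (FS) and 38.6 CPM (FI), lower with IT at an adjusted p of 0.0308. Vmp1, a membrane protein of autophagosome formation, was at 63.9 (VS), 94.7 (VI), 114 (FS) and 135 CPM (FI) (adjusted p of 0.0254 for amyloidosis). The protease gene Ctss was at 15.3, 20.7, 28.9 and 28.8 CPM in VS, VI, FS and FI, and the membrane gene Cd63 at 4.40, 3.61, 9.48 and 6.28 CPM, with adjusted p-values for amyloidosis of 0.0424 and 0.0379.

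**Figure D4:**
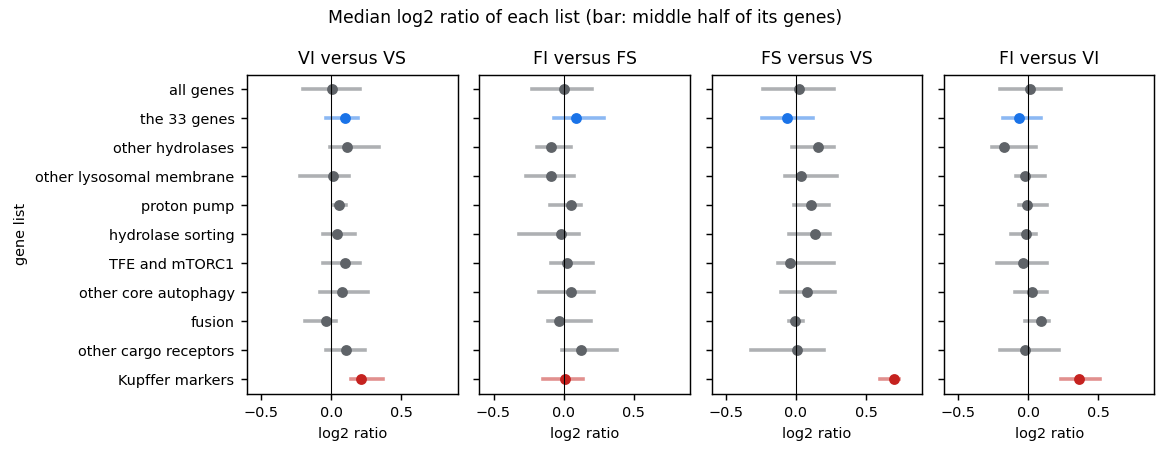
Median log2 ratio of each gene list in the 4 contrasts (points), with bars from the lower to the upper quartile of its genes. The medians of the 33 genes (blue) lie between −0.07 and 0.10, while the median of the Kupffer cell markers (red) reaches 0.70 (FS versus VS) and 0.37 (FI versus VI).

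Markers of Kupffer cells were higher in the fibril libraries. Their 12 markers, all with counts in every library, summed to 334 (VS), 401 (VI), 516 (FS) and 508 CPM (FI). All 12 were higher in FS than in VS and in FI than in VI, and 11 were higher in VI than in VS, but 6 in FI than in FS. C1qa, C1qb and Marco were called higher with amyloidosis (adjusted p of 0.0472, 0.0174 and 0.0398 by edgeR). The part of these cells in the ratios of the 33 genes was not tested. The 8 neutrophil markers summed to between 2.03 CPM in VS and 5.28 CPM in FS, with 3 of 8 counted in every library.

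Hepatocyte markers, which define the tissue as labelled, were abundant in all libraries and summed to between 160500 CPM in VS and 182700 CPM in FI. Alb alone was at 119900 CPM in VS and 135800 CPM in FI. Tat was at 938 (VS), 2018 (VI), 3226 (FS) and 5278 CPM (FI). It was called higher for both factors, with an adjusted p of 0.0433 for IT and 0.0045 for amyloidosis by edgeR. Of the 8 markers, 5 were higher in each contrast of IT and 6 in each contrast of amyloidosis. The stellate cell and endothelial sums ranged from 164 to 197 CPM and from 151 to 178 CPM. The endothelial marker Lyve1 was at 0.678 (VS), 1.03 (VI), 1.83 (FS) and 6.57 CPM (FI). Its adjusted p for amyloidosis was 0.0191 by edgeR. Of the 6 endothelial markers, 2 were higher in FS than in VS and 4 in FI than in VI. The VS library stood apart by 8 skeletal muscle genes, which summed to 68.1 (VS), 8.46 (VI), 0.948 (FS) and 0.703 CPM (FI). The part of that RNA in any ratio over VS was not tested. Its part in FI versus VI was not tested either, as VI still held more of it than FI. Without VS, the values that remain are FI versus FS for IT and FI versus VI for amyloidosis: 0.59 and 0.31 for Ctsl, 0.47 and 0.09 for Grn, 0.10 and 0.44 for Wipi1, −0.19 and −0.77 for Lipa, 0.19 and 0.68 for Ulk1, and 0.32 and −0.32 for Gabarapl1.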

How the data were processed

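Liver tissue of 4 mice per group was homogenized in TRIzol and pooled by the authors, who deposited a read count for each gene and library, without normalization, and FPKM values; recomputed from count, gene length and total count, these FPKM values had a ratio of 1 to the deposited ones. Per the labels, the submitters' processing notes name fastp 0.23.2, STAR 2.5, HTSeq 0.6.1 and mm10, without roles, and the sources used here do not give the strand setting of counting. The authors' own comparison columns, where the tables hold any, were not used.

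The 33 genes and all lists were chosen with earlier results of these data known. Counts were scaled by TMM, and log2 ratios used a prior of 0.5 counts and exact conditional binomial intervals. The additive model was fitted with edgeR 4.0.16 (robust quasi-likelihood) in R 4.3.3 to the genes that reached 1 CPM in 2 or more libraries. Values in every library were given for genes beyond 1.5-fold or called and for the gene of highest FPKM in each role; Map1lc3a, Map1lc3b and members named only by a range or ratio were picked after their values were seen. From the other lists, genes called or beyond 2-fold in both contrasts of a factor were named. Alternatives were other scalings, the FPKM with a pseudocount of 1 or 0.1, other filters, 2-fold, limma 3.58.1 (voom), DESeq2 1.42.0, no robust estimation and each factor alone. Figures used Python 3.11.15 and matplotlib 3.10.9. GENCODE M21 (GRCm38) lists all 33 genes, and gives 21 the same span as the count table. Gene coordinates were taken from the count table. For Adgre1, Retreg1 and Rubcn, the older symbols of the table were matched by Ensembl identifier, 3 in all. The promoter stretches of Ctsa, Cln3, Mcoln1 and Ctsd, cut to at most 30 bases, are annotated in GENCODE M21 as exon of a longer transcript of the same gene. Of the stretches of Ctsl and Lamp1, 18 and 6 bases are transcribed in that annotation.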

Additional observations from a re-analysis of the deposited data

Results flagged for a closer look

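For 5 genes, the ratio of the same factor had opposite signs in the vehicle and the fibril or in the sedentary and the trained libraries, with counting intervals that excluded 0 on both sides. With 1 library per group the difference was not tested, and the intervals cover counting error only. They narrow with depth, so that ratios near 0 can pass at high counts. How many of all genes meet this rule was not counted. Both contrasts had the same sign for 60.5% of all genes with IT and for 66.2% with amyloidosis. Npc1, a cholesterol carrier of the lysosomal membrane, had a log2 ratio with IT of −0.17 in vehicle and 0.18 in fibril mice. Gabarapl1 had −0.0868 in vehicle and 0.32 in fibril mice. For Lamp1 the ratios with IT were 0.0594 and −0.0477, and for Lamp2 they were 0.0418 and −0.0683. With amyloidosis, Lamp2 had 0.0593 in sedentary and −0.0508 in trained mice. Sqstm1 had −0.24 with amyloidosis in sedentary and 0.0745 in trained mice. Neither Lamp1 nor Lamp2 had the same sign in both contrasts of IT under any scaling.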

How the results depend on the processing

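No paired analysis was possible because each group has 1 library. Leaving out a library leaves the additive model no residual degree of freedom, so no such fit was made. Medians of the 33 genes kept their sign in all 4 contrasts under every scaling, filter and as a mean, from 0.07 to 0.13 for VI versus VS, from 0.015 to 0.11 for FI versus FS, from −0.08 to −0.02 for FS versus VS and from −0.09 to −0.04 for FI versus VI. At 2-fold, the genes past the threshold numbered 1 for VI versus VS, 0 for FI versus FS, 1 for FS versus VS and 0 for FI versus VI. With FPKM and a pseudocount of 1, the count for VI versus VS was 1 (Ctsl), and with total counts or a pseudocount of 0.1 it was 2. For FI versus FS it was 0 with total counts, with total counts without the 10 most abundant genes and with FPKM at either pseudocount, where Ctsl came to 0.52. For IT in the additive model, 1 gene (Ctsl) was called with DESeq2 size factors, by limma-voom and by DESeq2, and 3 (Ctsl, Grn and Map1lc3b) without the filter on low counts. For amyloidosis, 6 genes were called without that filter, 4 by DESeq2 (Ctsl, Gabarapl1, Lipa and Ulk1) and 0 with amyloidosis as the only factor. The cause was not tested, except that the last model leaves the IT difference in the residual. Over all genes, calls for IT were 157, against 740 without the filter, 241 with DESeq2 size factors and 0 with IT alone; for amyloidosis they were 540, against 1519 without the filter and 8 with amyloidosis alone. Without replicates, differences between mice could not be measured at any depth.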
